A study of Mus musculus with 8 samples.

Results

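The NF-kB subunits and feedback genes were 10 of the 32285 genes in the deposited count tables, taken by symbol: the subunits Nfkb1, Nfkb2, Rel, Relb and Rela, the IkB family genes Nfkbia, Nfkbie and Bcl3, and the feedback genes Tnfaip3 and Traf1. NF-kB is a family of dimeric transcription factors that inhibitory IkB proteins hold in the cytoplasm of a resting B cell. Antigen receptor, CD40 and Toll-like receptor signals lead to IkB degradation and free the dimers of the canonical arm, while CD40 and BAFF receptor signals drive the slower noncanonical arm, in which p100 is processed to p52. Several genes of the system are themselves transcribed by NF-kB, so that activation is followed by new inhibitor and new precursor.

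Single-cell RNA was measured in the spleen of 2-month-old mice in 8 libraries, 2 for each of 4 groups. The cKO mice carried floxed Eif3e alleles, Cγ1Cre and a Cre-dependent YFP reporter in Rosa26, and their controls were littermates, which the study describes as Cγ1Cre mice with the reporter. In Cγ1Cre mice the recombinase sits in the immunoglobulin γ1 locus and is transcribed after activation of a B cell, which then also becomes YFP+. Total live splenocytes (control total, cKO total) and sorted YFP+ cells (control YFP+, cKO YFP+) of each genotype were sequenced in either of 2 batches, each library from the pooled cells of several mice.

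The files held 83967 barcodes, of which 83704 passed the filters, with 71894780 to 105224903 unique molecular identifiers (UMIs) per library and 51 to 102 barcodes shared by each pair of libraries. Clustering without the 10 genes and the other NF-kB lists gave 66955 B-lineage cells in 8 classes named from markers and 2 unnamed clusters. The larger of these (3885 cells, leading genes Myo1f, Trabd2b, Dnm3, Ahnak and Cxcr3) is the unnamed cluster referred to here, and the other (58 cells led by Car1, Hba-a1 and Hbb-bs, 0 and 2 of them from control and cKO YFP+ libraries) entered the B-lineage sums only. Eif3e was 247 and 289 CPM in control YFP+ B-lineage cells and 239 and 285 in cKO. It was lower in cKO YFP+ pre-GCB-like cells (284 and 302 against 168 and 169 CPM, -0.72 ± 0.192, adjusted p 0.0494) and higher in both cKO libraries of YFP+ naive B-like cells (211 and 264 against 296 and 372 CPM, 0.65 ± 0.308, adjusted p 0.549, 0.00752 with the batch block). The kit counts the 3′ end of a transcript and no source used here names the deleted exons, so these levels do not check the genotype labels.

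Levels are given as CPM, the UMIs of a gene per 1000000 UMIs outside immunoglobulin genes in the summed cells of a class, for batch 1 and then batch 2. Fold changes are log2 values of cKO over control from edgeR fits on the summed UMIs, immunoglobulin genes included. They are moved towards 0 by a prior count and given with 1 standard error of the coefficient fitted without it. A gene is called when its Benjamini-Hochberg adjusted p over all genes tested is under 0.05. The CPM ratios of all genes sat lower than the fitted changes, at a median of -0.13 (log2) in YFP+ naive, -0.12 in YFP+ pre-GCB-like and -0.14 in YFP+ plasma cell-like cells, where the fitted medians were near 0.

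The promoters of Nfkb2, Nfkbia and Rel are printed because these genes had the largest fitted changes among the 10 in YFP+ pre-GCB-like cells fitted as a class, the first and second upward and Rel downward. Each sequence holds the 250 bases before a RefSeq start site (GRCm38.p6), 5′ to 3′ on the strand of the gene, and capitals mark matches to the κB consensus on either strand, merged where matches overlap. Nfkb2 had further start sites, whose windows (chr19:46305445-46305694 and chr19:46305680-46305929) each held a match and are not printed.
Nfkb2 (chr19:46304487-46304736, + strand): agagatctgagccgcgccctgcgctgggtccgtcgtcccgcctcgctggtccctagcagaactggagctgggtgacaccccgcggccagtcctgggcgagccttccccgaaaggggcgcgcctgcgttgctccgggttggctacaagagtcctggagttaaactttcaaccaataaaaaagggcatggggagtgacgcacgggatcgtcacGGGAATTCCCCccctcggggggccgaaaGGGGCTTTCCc
Nfkbia (chr12:55492648-55492897, - strand): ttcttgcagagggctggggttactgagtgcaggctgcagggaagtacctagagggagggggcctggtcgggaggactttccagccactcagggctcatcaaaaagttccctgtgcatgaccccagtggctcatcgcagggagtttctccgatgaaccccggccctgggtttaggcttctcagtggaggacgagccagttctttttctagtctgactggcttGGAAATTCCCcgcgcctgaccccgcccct
Rel (chr11:23770970-23771219, - strand): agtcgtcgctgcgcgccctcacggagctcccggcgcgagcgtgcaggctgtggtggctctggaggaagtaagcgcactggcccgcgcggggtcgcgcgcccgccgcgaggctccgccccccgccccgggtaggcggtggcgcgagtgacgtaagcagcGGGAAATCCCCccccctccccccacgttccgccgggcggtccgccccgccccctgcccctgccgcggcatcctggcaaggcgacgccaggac
Of the 10 genes 8 were in the promoter table, and 5 of these (Nfkb2, Rel, Nfkbia, Nfkbie and Tnfaip3) had a match before at least 1 start, against 4.46% of the 27025 genes in the table. Nfkb1 and Relb were not in the table, and Rela, Traf1 and Bcl3 had no match in this window. The genes were picked as parts of the NF-kB system, some of them known to be transcribed by it, so this share is no result of these data. Nfkb2 and Tnfaip3 had more than 1 window each, and so more places for a match. A match is a run of letters, and binding was not measured. In the GENCODE vM21 annotation of GRCm38 the whole genes lie at chr19:46304320-46312385 (Nfkb2), chr12:55489410-55492647 (Nfkbia) and chr11:23736847-23770970 (Rel), and all 10 genes are protein coding. The printed Nfkb2 window lies inside the gene as annotated there.

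In control YFP+ cells the 5 subunits had their lowest mean in plasma cell-like cells, and Nfkb1, Nfkb2, Rel and Relb their next lowest in germinal centre (GCB)-like cells. This order did not hold for every gene in cKO YFP+ cells, where Nfkb2 was lowest in B1-like cells (25.0 CPM) and stood at 38.9 in plasma cell-like cells. In control YFP+ cells Rel, which encodes c-Rel, a subunit needed for B cell proliferation, ran from 993 ± 120.0 CPM (SD, n = 2) in marginal zone (MZB)-like cells through 847 ± 41.7 in naive B-like, 607 ± 20.6 in pre-GCB-like and 300.4 ± 7.20 in GCB-like cells to 101.1 ± 15.1 in plasma cell-like cells, a range of 9.82-fold. MZB-like and naive libraries did not overlap, nor did any neighbours in this order from B1-like cells downward, while naive, interferon-response, transitional and B1-like cells overlapped with their neighbours. Nfkb1, the gene of p105 and its product p50, was highest in B1-like cells (305 ± 64.8 CPM) and overlapped between neighbours down to interferon-response cells (205 ± 50.5), below which stood GCB-like (100.8 ± 19.3) and plasma cell-like cells (73.6 ± 18.6). Within each of the 8 libraries the ratio of GCB-like to naive cells was 0.209 to 0.395 for Nfkb1 and 0.332 to 0.426 for Rel.

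Relb and Nfkb2, the partners of the noncanonical arm, had their highest means in control YFP+ naive cells (127 ± 18.9 and 52.5 ± 1.25 CPM) and their lowest in plasma cell-like cells (40.0 ± 3.30 and 21.2 ± 4.30). Neighbouring classes overlapped in both genes except between GCB-like and plasma cell-like cells and, for Relb, between pre-GCB-like and GCB-like cells. Rela, the gene of p65, varied least, from 47.0 CPM in interferon-response to 25.0 in plasma cell-like cells, a range of 1.88-fold.

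Of the IkB family genes, Nfkbia departed from the order of the subunits. It encodes IkBα and was highest in plasma cell-like cells (512 ± 2.60 CPM), next in pre-GCB-like cells (364 ± 1.83), then in naive cells (268 ± 12.2), with no overlap among these 3, and lowest in MZB-like cells (152 ± 4.99). Nfkbie, the gene of IkBε, was highest in pre-GCB-like cells (59.6 ± 5.13 CPM), which overlapped with interferon-response cells (58.1 ± 1.28), and it was 2.18- to 2.59-fold higher in pre-GCB-like than in naive cells of the same library. Its lowest means were in GCB-like (23.7 ± 6.86 CPM) and plasma cell-like cells (11.4 ± 2.64). Bcl3, a nuclear IkB protein that binds p50 and p52 dimers, ranged from 49.0 CPM in transitional to 13.9 in plasma cell-like cells. Its transitional libraries overlapped with those of pre-GCB-like cells (44.4 CPM).

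Of the feedback genes, Tnfaip3, the gene of the ubiquitin-editing enzyme A20, was highest in the unnamed cluster, at 131 and 79.2 CPM, without overlap with pre-GCB-like cells (72.5 and 53.7). Traf1, an adaptor of tumour necrosis factor receptors, was at 99.8 ± 9.68 CPM in pre-GCB-like cells, overlapped there with the unnamed cluster (93.5 ± 25.6), and was lowest in transitional cells (19.7 ± 8.14). The control YFP+ transitional levels rest on few cells, 160 and 31, with 732701 and 120989 UMIs. The ratio of pre-GCB-like to naive cells was 1.45 to 4.39 for Traf1 over the 8 libraries. These levels are a description with no test, since the classes were clustered from the same cells.

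**Figure D1:**
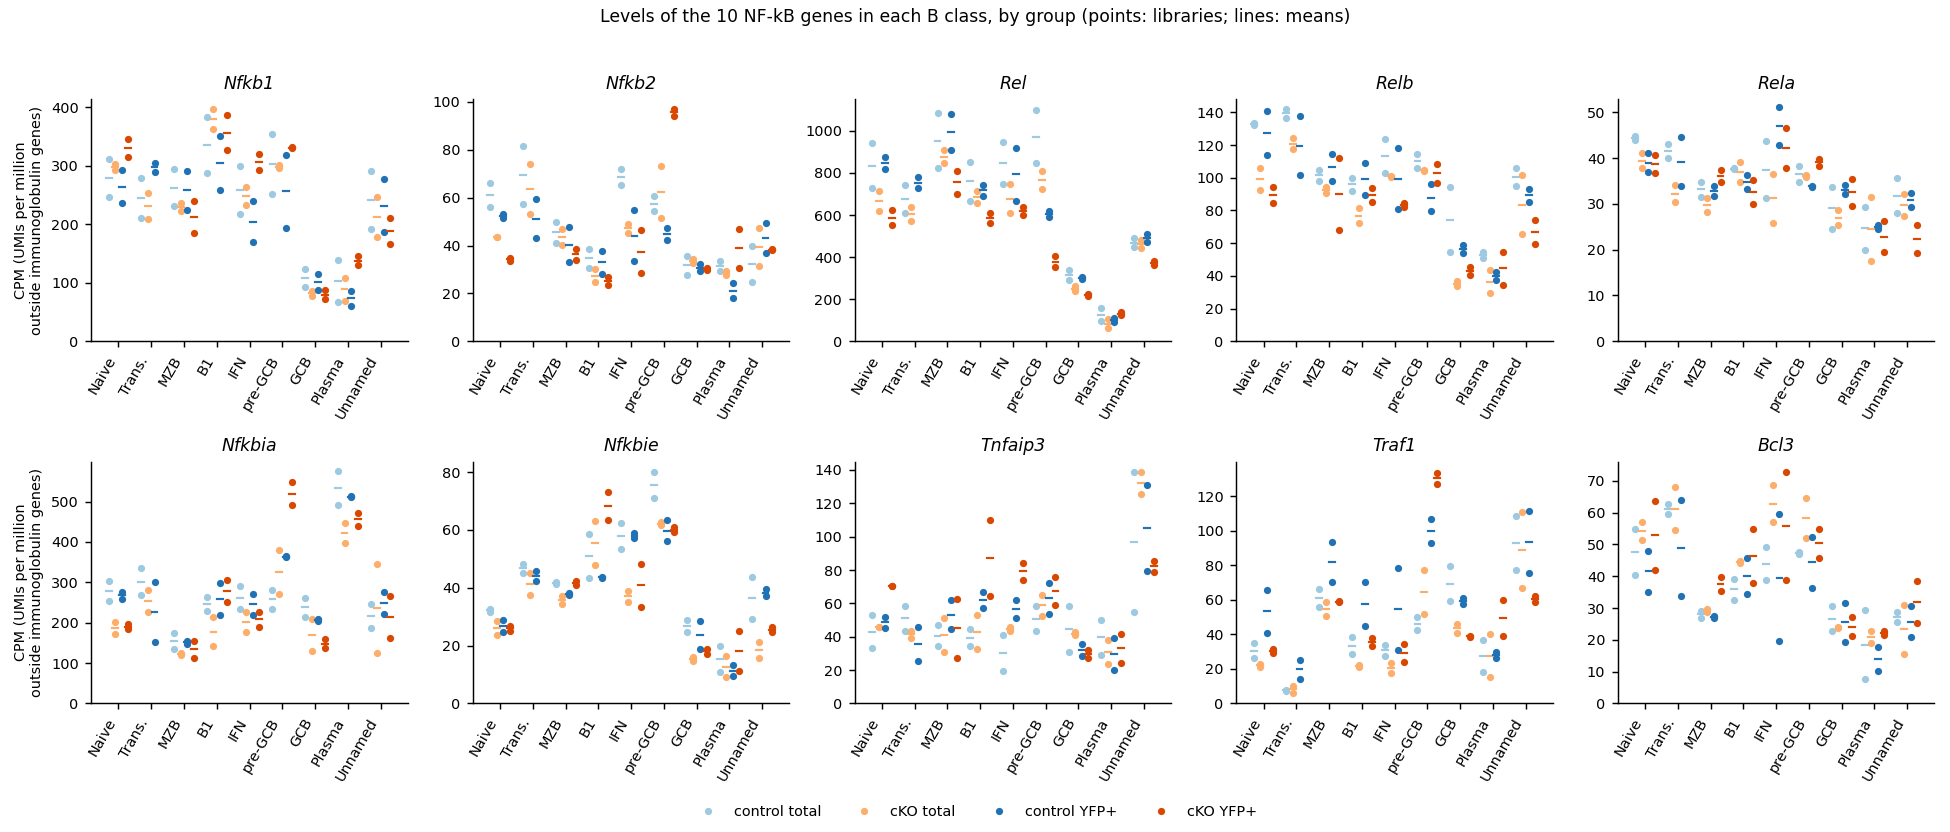
CPM (y axis, linear, from 0) of each gene in the 9 B classes (x axis), with 1 point per library, a line at the mean and a colour per group. Nfkb2 in cKO YFP+ pre-GCB-like cells (97.1 and 94.3 CPM) stood above every other library and class shown, and the lowest 2 means of Nfkb1 and of Rel were in GCB-like and plasma cell-like cells in all 4 groups.

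The pre-GCB-like cells of the YFP+ sort were named from ribosome biogenesis and early activation genes such as Nme1, Ncl, Srm and Batf. In them 1 of the 10 genes was called (percent called over all genes 8.78%). Nfkb2, the gene of p100 and p52, was at 47.2 and 42.2 CPM in control and 97.1 and 94.3 in cKO. Both cKO libraries lay above both control libraries, and the fitted change was 1.18 ± 0.185, adjusted p 0.00548, or 2.26-fold (adjusted p 1.27e-10 to 0.0103 over the alternatives, not counting the clusters of the class fitted alone). In total pre-GCB-like cells Nfkb2 was at 54.6 and 60.5 CPM in control and 51.5 and 73.1 in cKO, which overlapped (0.18 ± 0.244, adjusted p 0.999). The difference between the sorts was not tested in this class.

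The other subunits divided in YFP+ pre-GCB-like cells. Rel was at 621 and 592 CPM in control and 404 and 353 in cKO, with no overlap (-0.60 ± 0.191, adjusted p 0.0877). Nfkb1 was at 318 and 194 CPM in control and 331 and 332 in cKO (0.46 ± 0.234, adjusted p 0.272). Without 1 library its change ran from 0.23 to 0.82. The control libraries of Nfkb1 stood further apart from each other than the higher of them from either cKO library. Relb (79.5 and 96.2 against 109 and 96.8 CPM) and Rela (33.8 and 33.7 against 39.9 and 38.3 CPM) had fitted changes of 0.30 and 0.29, neither of them called.

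Of the IkB family and feedback genes in these cells, Nfkbia was at 363 and 365 CPM in control and 490.4 and 548 in cKO (0.60 ± 0.2, adjusted p 0.103). Traf1 was at 92.9 and 107 CPM in control and 134 and 127 in cKO (0.46 ± 0.194, adjusted p 0.182). Neither gene overlapped between the genotypes. Nfkbie (63.3 and 56.0 against 60.9 and 59.2 CPM), Tnfaip3 (72.5 and 53.7 against 75.6 and 59.2) and Bcl3 (52.3 and 36.4 against 45.7 and 54.9) overlapped, with fitted changes of 0.09, 0.17 and 0.27 (0.042 to 0.37 for Tnfaip3 and 0.088 to 0.52 for Bcl3 without 1 library).

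Counted without a test, 6 of the 10 genes lay higher in both cKO YFP+ pre-GCB-like libraries than in both controls (20.2% of all genes with a mean of at least 10 CPM did so) and 1, Rel, lay lower (34.6%). With the batch as a block, 5 were called (percent called 28.1%). With the blocked adjusted p first and then its range over the same alternatives, these were Nfkb2 (1.27e-10, 1.27e-10 to 0.0103), Nfkbia (2.36e-06, 2.36e-06 to 0.722), Traf1 (0.0016, 0.0016 to 0.705) and Nfkb1 (0.0441, 0.0117 to 0.781) as higher, and Rel (1.03e-06, 1.03e-06 to 0.654) as lower. DESeq2 called 3 (percent called 5.14%), namely Nfkb2, Nfkbia and Rel.

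The class held 2 clusters, of which cluster 13 made up 35.1% of control and 35.5% of cKO YFP+ cells. Of the summed UMIs, on which levels and fits rest, cluster 13 held 2967767 of 4615864 and 1937739 of 3002509 in control YFP+ libraries. In cKO YFP+ libraries it held 21661151 of 34005512 and 21437547 of 39787833. Cluster 13 had summed cell cycle genes of 3857 and 3680 CPM in control and 2351 and 2373 in cKO (leading genes Fabp5, Timd2, Snhg15 and Socs2), and cluster 5 of 176 and 150.3 and 179.6 and 268 (Mreg, Ccnd2, Il4i1 and Mir155hg). In YFP+ cells of cluster 13 the median cell held 22142 and 16891 UMIs in control and 28937 and 27147 in cKO. The mitochondrial share was 2.65 and 2.38% against 1.91 and 1.54%. Neither measure overlapped, and their part in the results was not tested. Fitted alone, a choice made after seeing the data, cluster 13 gave 4 calls, all higher in cKO (percent called 19.9%). Nfkb2 was at 35.9 and 42.4 CPM in control and 106 and 97.3 in cKO there (1.43 ± 0.176, adjusted p 0.000593).

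Nfkb1 in cluster 13 was at 207 and 137 CPM in control and 306 and 308 in cKO (0.88 ± 0.190, adjusted p 0.0106). Nfkbia (339 and 354 against 499 and 518 CPM, 0.60 ± 0.155, adjusted p 0.0238) and Relb (55.4 and 65.9 against 91.7 and 86.3 CPM, 0.61 ± 0.170, adjusted p 0.032) were called as well. The block gave 5 calls in cluster 13 (29.5% of genes) and DESeq2 4 (8.73%). In cluster 5 edgeR called 0 of the 10 genes (percent called 1.82%), with 2 at an unadjusted p under 0.05, Nfkb2 (67.5 and 41.8 against 80.8 and 90.8 CPM, 0.79 ± 0.327, adjusted p 0.285) and Rel (1171 and 1161 against 727 and 469.7 CPM, -0.84 ± 0.345, adjusted p 0.288). DESeq2 called 0 there (percent called 1.02%), and the block called 4, with Nfkb2, Nfkbia and Traf1 as higher and Rel as lower (percent called 17.8%). Eif3e had a fitted change of -1.08 ± 0.157, adjusted p 0.00146 in cluster 13 and of -0.30 ± 0.331, adjusted p 0.767 in cluster 5. The difference between the clusters was not tested.

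Other measurements differed with the genotype in YFP+ pre-GCB-like cells, and their part in these results was not tested. The summed level of the 10 cell cycle genes was 2539 and 2428 CPM in control and 1563 and 1405 in cKO. The median cell held 8460.5 and 6171.5 UMIs in control and 11567 and 15183 in cKO, and the class had 356 and 310 control cells against 1919 and 1911 cKO cells. The mitochondrial share of UMIs was 2.54 and 2.4% in control and 2.19 and 1.86% in cKO, and the 7 B-lineage markers summed to 4462 and 4663 and 3631 and 3354 CPM. The 6 NK cell markers summed to 1.76 and 1.35 against 0.446 and 0.178 CPM, with Ncr1 at 0 in both. None of these measures overlapped. The summed level of 16 dissociation and immediate early genes did (1788 and 2737 against 2456 and 2957 CPM). The 7 T cell markers summed to 8.13 and 3.37 CPM in control and 7.10 and 4.98 in cKO, and the neutrophil markers Ly6g, Retnlg and Mmp8 were at 0.

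**Figure D2:**
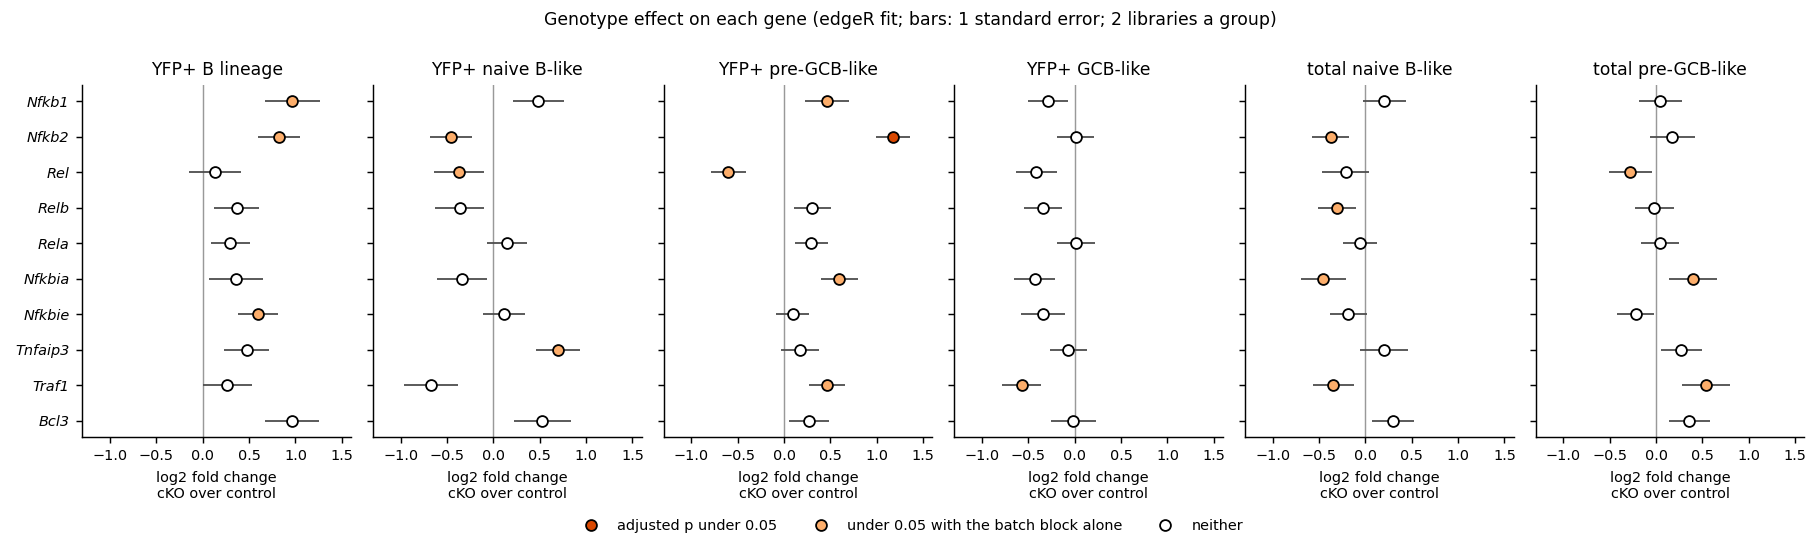
Fitted log2 fold change (x axis, cKO over control, bars of 1 standard error) of each gene (y axis) in 6 sets of cells, from 2 libraries a group. Dark fill, an adjusted p under 0.05, marks Nfkb2 in YFP+ pre-GCB-like cells (1.18), pale fill marks genes under 0.05 with the batch block alone, and open points mark neither.

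Among YFP+ naive cells, 0 of the 10 genes passed by edgeR (percent called 0.657%) and 0 by DESeq2 (1.45%), with 1 at an unadjusted p under 0.05. That gene, Tnfaip3, was at 52.0 and 45.3 CPM in control and 70.5 and 70.6 in cKO (0.69 ± 0.237, adjusted p 0.316). Nfkb2, higher in cKO pre-GCB-like cells, lay on the other side here, at 51.6 and 53.4 CPM in control and 33.6 and 34.9 in cKO (-0.46 ± 0.230, adjusted p 0.581). Rel was at 877 and 818 CPM in control and 624 and 553 in cKO (-0.37 ± 0.273, adjusted p 0.761). None of the 3 genes overlapped between the genotypes.

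Nfkbia in YFP+ naive cells was at 259 and 276 CPM in control and 184 and 197 in cKO (-0.34 ± 0.269, adjusted p 0.798). Relb was at 114 and 141 CPM in control and 94.2 and 84.4 in cKO (-0.36 ± 0.266, adjusted p 0.76). Traf1 was at 40.9 and 65.8 CPM in control and 31.6 and 28.9 in cKO (-0.68 ± 0.294, adjusted p 0.488). With these, 5 genes lay lower in both cKO libraries (26.5% of genes did) and 2, Nfkb1 (292 and 236 against 315 and 345 CPM) and Tnfaip3, lay higher (10.4%). The fitted changes of Nfkbie (0.12) and Rela (0.14) were positive while their mean CPM was slightly lower in cKO (26.8 against 26.0, and 39.0 against 38.8). With the batch block 3 genes were called (percent called 13.8%; blocked adjusted p, then its range): Tnfaip3 (0.00885, 0.00885 to 1) as higher, and Nfkb2 (0.027, 0.027 to 1) and Rel (0.0254, 0.0254 to 1) as lower.

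Among total naive cells, 0 of the 10 genes passed by edgeR (percent called 0.117%) and 0 by DESeq2 (0.944%), with 0 at an unadjusted p under 0.05. Nfkbia was at 253 and 303 CPM in control and 173 and 202 in cKO (-0.46 ± 0.245, adjusted p 0.907). Nfkb2 was at 56.2 and 66.0 CPM in control and 43.5 and 43.7 in cKO (-0.38 ± 0.201, adjusted p 0.906). Relb was at 133 and 132 CPM in control and 106 and 92.5 in cKO (-0.31 ± 0.204, adjusted p 0.987). These 3 genes were lower in both cKO libraries, together with Rel, Rela, Nfkbie and Traf1, which makes 7 of 10 (22.1% of genes), and 0 lay higher (8.16%). With the batch block 4 were called as lower (percent called 20%; blocked adjusted p, then its range): Nfkbia (0.00031, 0.00031 to 1), Nfkb2 (0.00218, 0.00218 to 1), Relb (0.00678, 0.00678 to 1) and Traf1 (0.0115, 0.0115 to 1). Without 1 library the change ran from -0.63 to -0.30 for Nfkbia, -0.50 to -0.23 for Nfkb2 and -0.55 to -0.10 for Traf1.

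Naive B-like cells of the genotypes lay mostly in different clusters of the class. In total cells 80.5% and 18.2% of control cells were in clusters 1 and 4, whereas 48.7% and 38% of cKO cells were in clusters 0 and 2. In YFP+ cells 33.3% and 63.2% of control cells were in clusters 1 and 4, and 45.8%, 30.5% and 21.9% of cKO cells in clusters 0, 2 and 10. The summed immediate early genes of YFP+ naive cells were at 3659 and 6526 CPM in control and 4103 and 4513 in cKO, which overlapped. In total naive cells they were at 3765 and 5345 and 3437 and 3748 CPM, which did not. The median YFP+ naive cell held 3952 and 2803 UMIs in control and 5284.5 and 6055 in cKO, with a mitochondrial share of 2.26 and 2.42% and 2.6 and 2.68%. In total naive cells these were 5230.5 and 4195.5 UMIs against 5385 and 6037 and 2.17 and 2.24% against 2.44 and 2.59%. The class had 1944 and 2509 against 5710 and 7323 YFP+ and 3160 and 4058 against 4105 and 4719 total cells. The summed B-lineage markers were 8713 and 8617 and 8164 and 8140 CPM in YFP+ and 9220 and 9227 and 8595 and 8720 in total naive cells. The 7 monocyte or macrophage markers summed to 7.15 and 7.23 CPM in control and 27.0 and 16.2 in cKO YFP+ naive cells, with Fcgr1 at 0 in both. None of these overlapped between the genotypes, and their part in the results was not tested.

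In total pre-GCB-like cells edgeR called 0 (percent called 0.425%) and DESeq2 0 (0.455%), with 0 at an unadjusted p under 0.05. Traf1 was at 42.3 and 50.2 CPM in control and 52.0 and 77.4 in cKO (0.54 ± 0.260, adjusted p 0.999). Rel was at 1097 and 846 CPM in control and 809.8 and 723 in cKO (-0.28 ± 0.233, adjusted p 0.999). Both lay on the same side as in YFP+ pre-GCB-like cells, and the block called both and Nfkbia (234 and 282 against 271 and 381 CPM), 3 of 10 (percent called 8.63%; blocked adjusted p, then its range): Traf1 (0.000578, 0.000578 to 1), Nfkbia (0.00104, 0.00104 to 1) and Rel (0.0171, 0.0171 to 1). Without 1 library the change ran from 0.19 to 0.84 for Traf1, 0.086 to 0.67 for Nfkbia and -0.41 to -0.12 for Rel. The T cell markers in this class summed to 67.6 and 71.8 CPM in control and 40.1 and 32.6 in cKO, and the median cell held 7567.5 and 6153 against 7865.5 and 8356 UMIs, with B-lineage markers of 5802 and 5809 against 5446 and 5432 CPM and 378 and 497 against 554 and 519 cells, whose part in the result was not tested.

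In YFP+ GCB-like cells edgeR called 0 of 10 (percent called 1.22%) and DESeq2 0 (1.17%), with 1 at an unadjusted p under 0.05. That gene, Traf1, was at 57.4 and 60.8 CPM in control and 38.5 and 39.1 in cKO (-0.57 ± 0.211, adjusted p 0.404), and the block called it (1 of 10, percent called 7.67%; blocked adjusted p, then its range): Traf1 (0.00552, 0.00552 to 1). Rel (306 and 295 against 216 and 223 CPM), Nfkbia (209 and 204 against 137 and 159.6) and Relb (58.6 and 53.8 against 45.6 and 40.6) were also lower in both cKO libraries, 4 of 10 in all (16.3% of genes), and 0 were higher (14.9%). The class had 1649 and 3404 control but 351 and 209 cKO cells, with medians of 12967 and 12097.5 against 15254 and 17556 UMIs and summed B-lineage markers of 5557 and 5484 against 4350 and 4470 CPM. The cell cycle genes summed to 4331 and 4122 against 4579 and 4511 CPM and the mitochondrial share was 2.44 and 2.33 against 2.23 and 1.93%. None of these overlapped, and their part in the result was not tested. Where cKO cells instead took the class of their nearest control cells, 344 of 697 and 413 of 622 cKO YFP+ GCB-like cells came from the pre-GCB-like class, and Traf1 (0.96), Nfkbia (1.12) and Relb (0.49) changed sign. In that fit 6 of the 10 genes were called (19.1% of genes).

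In total GCB-like cells Relb was at 94.1 and 54.5 CPM in control and 33.5 and 37.0 in cKO (-1.03 ± 0.261, adjusted p 0.0803). Without 1 library the change ran from -1.33 to -0.63. By edgeR 0 of 10 were called (percent called 1.67%), with 3 at an unadjusted p under 0.05 (Relb, Nfkbie and Traf1). The count by DESeq2 was 0 (percent called 0.611%). The block called Relb as lower (1 of 10, percent called 5.01%; blocked adjusted p, then its range): Relb (0.000128, 3.73e-06 to 0.597). The control libraries held 61 and 48 of these cells and the cKO libraries 179 and 237, and the summed B-lineage markers were 5965 and 5527 CPM in control and 4274 and 4744 in cKO. The part of these measures in the result was not tested.

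In YFP+ plasma cell-like cells edgeR called 0 of 10 (percent called 1.09%), with 5 at an unadjusted p under 0.05. Nfkb1 was at 86.8 and 60.5 CPM in control and 146 and 130 in cKO (1.05 ± 0.268, adjusted p 0.0996). Nfkb2 was at 24.2 and 18.1 CPM in control and 47.0 and 30.7 in cKO (1.00 ± 0.282, adjusted p 0.144). Both were higher in both cKO libraries, as were Rel, Traf1 and Bcl3, 5 of 10 in all (11.9% of genes), and 1, Nfkbia, was lower (27.4%). The block called 2 (percent called 1.74%; blocked adjusted p, then its range), Nfkb1 (0.0288, 0.0288 to 0.472) and Nfkb2 (0.0495, 0.0495 to 0.702), and DESeq2 called Nfkb1 (percent called 0.773%). The cKO libraries held 114 and 94 of these cells against 894 and 1050 in control. The summed immediate early genes were 5727 and 7344 CPM in control and 4783 and 5710 in cKO, and the cell cycle genes 1910 and 1987 and 1180 and 924. The median cell held 19680 and 18393 against 19771 and 26674.5 UMIs, the 6 NK cell markers summed to 5.30 and 6.42 against 3.21 and 1.12 CPM and the 6 neutrophil markers to 1.45 and 0.794 against 0.534 and 0.558 CPM. None of these overlapped, and their part in the result was not tested.

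In YFP+ B1-like cells edgeR and DESeq2 called 0 of 10 (percent called 1.73% and 0.868%), with 1 at an unadjusted p under 0.05. That gene, Nfkbie, was at 43.9 and 43.3 CPM in control and 63.3 and 73.1 in cKO (0.74 ± 0.261, adjusted p 0.264). The block called 3 (percent called 10.4%; blocked adjusted p, then its range): Nfkbie (0.00337, 0.00337 to 1) and Tnfaip3 (0.0246, 0.0246 to 1) as higher, and Traf1 (0.0416, 0.0416 to 1) as lower. Tnfaip3 turned to -0.10 at a clustering resolution of 0.5, and ran from 0.19 to 0.90 without 1 library, while Traf1 ran from -0.94 to -0.18. The median B1-like cell held 6029 and 4392.5 UMIs in control and 8486.5 and 8040.5 in cKO, with a mitochondrial share of 3 and 2.97 against 2.76 and 2.79% and 897 and 882 against 368 and 242 cells. The B-lineage markers summed to 7001 and 7100 against 6604 and 6490 CPM and the T cell markers to 15.3 and 11.8 against 16.7 and 21.6 CPM, with Bcl11b and Themis at 0 in cKO. None of these overlapped, and their part in the result was not tested. In YFP+ interferon-response cells Nfkb1 (241 and 169 against 319.7 and 292 CPM) was called with the block alone (4.65% of genes, against 0.792% without it; blocked adjusted p, then its range): Nfkb1 (0.0361, 0.0361 to 1). The class had 89 and 62 against 181 and 205 cells with medians of 4103 and 3364 against 5266 and 6301 UMIs. Its T cell markers summed to 11.9 and 3.93 against 3.80 and 3.64 CPM, with Cd3e at 0 in both, and its NK cell markers to 2.38 and 3.93 against 0.949 and 0 CPM, with Ncr1, Klre1 and Klra8 at 0 in both. None of these overlapped, and their part in the result was not tested.

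In YFP+ MZB-like cells and the YFP+ unnamed cluster, and in total transitional, MZB-like, B1-like, interferon-response, plasma cell-like and unnamed cells, edgeR, its block and DESeq2 called 0 of the 10 genes, with 0 at an unadjusted p under 0.05 (percent called without the block 0.226%, 0.0709%, 0%, 0.0352%, 0.199%, 0.122%, 0.0902% and 0.623% in that order, and with it 1.94%, 0.753%, 1.48%, 1.81%, 4.57%, 4.29%, 4.96% and 2.41%, and by DESeq2 0.116%, 0.114%, 0.049%, 0.0464%, 0.0612%, 0.17%, 0.143% and 0.303%). Fitted changes there ran from -0.73 (Nfkbie, total unnamed cluster) to 0.61 (Tnfaip3, total interferon-response).

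Over the 20 genotype comparisons, which share libraries and in part cells, edgeR called 1 of 200 values, its batch block 32 and DESeq2 7. Of all genes tested in them together these tools called 1.58%, 9.73% and 1.39%. The DESeq2 share is over 378663 values without a filter on low counts, and the edgeR shares are over 220501. In number DESeq2 called more values than edgeR without the block, 5249 against 3486. In YFP+ cells 13.5% to 34.6% of genes were lower in both cKO libraries and 8.95% to 20.2% higher, according to the class, and in total cells 8.45% to 23.3% lower and 7.15% to 16.2% higher. Rel was lower in both cKO libraries in 7 of 8 YFP+ classes (1 higher) and in 4 of 9 total classes (0 higher). For Relb this was 3 of 8 YFP+ classes (1 higher) and 8 of 9 total classes (0 higher), and for Nfkbie 2 of 8 YFP+ classes (2 higher) and 7 of 9 total classes (0 higher). Traf1 was lower in 5 of 8 YFP+ classes (2 higher) and in 4 of 9 total classes (1 higher), Nfkbia in 3 of 8 YFP+ classes (1 higher) and in 6 of 9 total classes (0 higher), and Nfkb2 in 2 of 8 YFP+ classes (2 higher) and in 4 of 9 total classes (0 higher). Rela was lower in 1 of 8 YFP+ classes (2 higher) and in 3 of 9 total classes (0 higher). Nfkb1 was lower in 0 of 8 YFP+ classes (4 higher) and in 1 of 9 total classes (0 higher), Tnfaip3 in 0 of 8 YFP+ classes (2 higher) and in 0 of 9 total classes (1 higher), and Bcl3 in 0 of 8 YFP+ classes (2 higher) and in 0 of 9 total classes (3 higher).

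Summed over all YFP+ B-lineage cells, the 10 genes had positive fitted changes, of which edgeR called 0 (percent called 7.16%), with 4 at an unadjusted p under 0.05. Nfkb1 was at 208 and 132 CPM in control and 299.5 and 321 in cKO (0.97 ± 0.299, adjusted p 0.114). Nfkb2 was at 34.6 and 34.9 CPM in control and 59.1 and 58.4 in cKO (0.82 ± 0.230, adjusted p 0.0832). Bcl3 was at 33.3 and 21.2 CPM in control and 41.5 and 57.1 in cKO (0.96 ± 0.289, adjusted p 0.104), and ran from 0.59 to 1.26 without 1 library. All but Rel lay higher in both cKO libraries (9 of 10, against 17% of genes).

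The block called 3 in this sum (percent called 19.9%; blocked adjusted p, then its range), Nfkb2 (0.00468, 0.00468 to 0.696), Nfkb1 (0.0127, 0.012 to 0.847) and Nfkbie (0.0205, 0.0205 to 0.962). DESeq2 called 3, Nfkb1, Nfkb2 and Bcl3 (percent called 7.31%). The median fitted change was 0.42 for the 10 genes, and that of all genes was 0.00414.

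The mixture of classes in this sum differed between the genotypes. GCB-like cells, low in Nfkb1 and Rel, held 31.7% and 46.9% of control YFP+ B-lineage UMIs and 7.22% and 3.98% in cKO, while pre-GCB-like cells held 5.89% and 3.07% in control and 40.7% and 40% in cKO. The cell cycle genes summed to 1887 and 2391 against 1042 and 804 CPM, the NK cell markers to 1.73 and 1.59 against 0.726 and 0.223 CPM, and the mitochondrial share was 2.47 and 2.47 against 2.5 and 2.55%, none of which overlapped and whose part in the result was not tested. With the class levels averaged at the mean class shares of the control libraries, a choice made after seeing the data, the log2 ratio of mean CPM was 0.02 in place of 0.87 for Nfkb1, 0.05 in place of 0.76 for Nfkb2 and 0.21 in place of 0.85 for Bcl3. The other 7 genes were below 0 at fixed shares, from -0.04 (Tnfaip3) to -0.40 (Rel). Control shares give pre-GCB-like cells the small weight they have in control, so changes within that class count little in these ratios. Ratios at the class shares of the cKO libraries were not computed, and the part of the mixture in the summed changes was not tested. In total B-lineage cells fixed shares moved the ratio of Nfkb1 from -0.03 to -0.01 and that of Relb from -0.35 to -0.29.

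**Figure D3:**
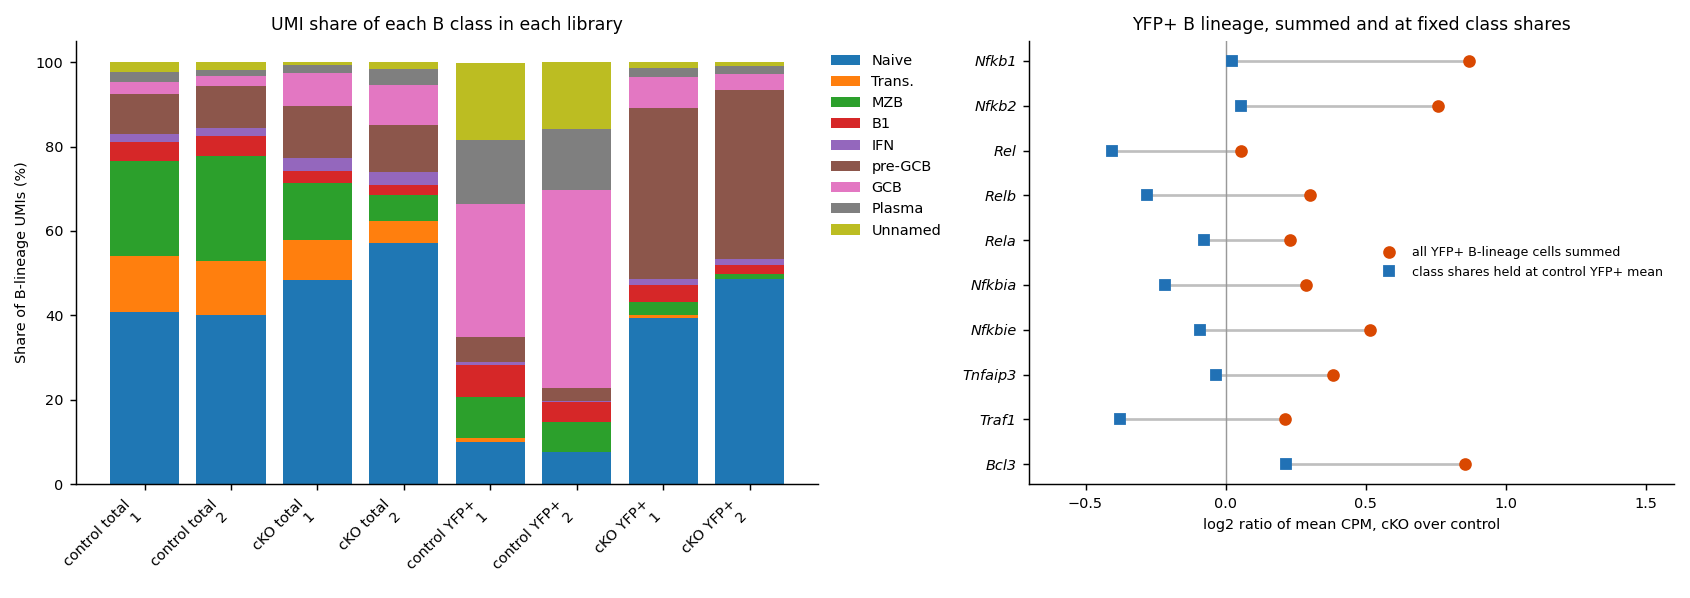
Left, share of B-lineage UMIs (y axis, percent, stacked bars from 0) of each class in the 8 libraries (x axis). Right, log2 ratio of mean CPM (x axis, cKO over control) of each gene (y axis) in YFP+ B-lineage cells, summed (circles) and at the mean class shares of control YFP+ (squares), where Nfkb1 went from 0.87 to 0.02. Control shares give pre-GCB-like cells a small weight, and ratios at cKO shares were not computed.

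In total B-lineage cells edgeR called 0 of 10 (percent called 0.0134%) and DESeq2 0 (1.26%), with 0 at an unadjusted p under 0.05. Rel was at 906 and 717 CPM in control and 692 and 581 in cKO (-0.29 ± 0.241, adjusted p 1). Nfkbie was at 42.3 and 40.2 CPM in control and 31.6 and 32.3 in cKO (-0.30 ± 0.170, adjusted p 0.872). Neither overlapped, and the block called 2, both as lower (percent called 10.5%; blocked adjusted p, then its range): Rel (0.0437, 0.0437 to 1) and Nfkbie (0.0457, 0.0457 to 1). Without 1 library Rel ran from -0.41 to -0.15. GCB-like cells held 2.85% and 2.29% of control and 7.76% and 9.48% of cKO UMIs in this sum. Its cell cycle genes were at 388 and 349.6 against 643 and 670.2 CPM, its B-lineage markers at 8809 and 8823 against 7978 and 7691 CPM, its monocyte or macrophage markers at 16.5 and 25.0 against 14.99 and 13.5 CPM and its NK cell markers at 7.84 and 8.07 against 5.92 and 6.31 CPM, and its mitochondrial share was 2.33 and 2.33 against 2.46 and 2.55%. None of these overlapped, and their part in the result was not tested.

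The genotype effect in YFP+ B-lineage cells minus that in total B-lineage cells was positive for all 10 genes, with a median of 0.58 against 0.00585 for all genes. By edgeR 0 were called (percent called 1.45%), while DESeq2 gave 1 call, Nfkbie, and 4 edgeR values had an unadjusted p under 0.05 (percent called by DESeq2 3.37%). The difference was 1.02 ± 0.297, adjusted p 0.17 for Nfkb2, 0.91 ± 0.321, adjusted p 0.259 for Nfkb1 and 0.88 ± 0.226, adjusted p 0.121 for Nfkbie. Whether the total and YFP+ libraries of a genotype and batch came from the same mice is not stated in the sources used here. With genotype and batch together as a block, which treats them as a pair, 8 were called (percent called 18.3%), the exceptions being Rela and Tnfaip3. In naive B-like cells edgeR, its block and DESeq2 called 0, with 0 at an unadjusted p under 0.05 (percent called 0%, 2.24% with the block and 0.0176% by DESeq2).

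The effect of the sort, YFP+ over total, was fitted within each genotype. These are sums over class mixtures that differed between the sorts. In control, GCB-like cells held 2.85% and 2.29% of B-lineage UMIs in total and 31.7% and 46.9% in YFP+ libraries, and in cKO, pre-GCB-like cells held 12.4% and 11.1% and 40.7% and 40%. Of the 10 cell cycle genes edgeR called 10 as higher in YFP+ cells in control (median 2.73) and 0 in cKO (median 0.69). The part of the mixture in the sort effects was not tested. In cKO B-lineage cells 1 of 10 was called (percent called 0.885%), Traf1, at 30.6 and 33.3 CPM in total and 75.2 and 69.6 in YFP+ cells (1.27 ± 0.171, adjusted p 0.0458). In control it was at 34.4 and 42.7 CPM in total and 56.6 and 68.5 in YFP+ cells (0.84 ± 0.296, adjusted p 0.138, and 0.53 to 1.08 without 1 library). Traf1 was thus higher in each YFP+ library than in any total library.

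Sort effects were below 0 in control and above 0 in cKO for 6 of the 10 genes, Nfkb2, Nfkb1, Relb, Rela, Nfkbie and Bcl3. The share of all genes with these signs was not computed, so the count does not set the 10 genes apart. The effects in control and in cKO were -0.53 ± 0.261, adjusted p 0.27 and 0.48 ± 0.173, adjusted p 0.244 for Nfkb2. They were -0.54 ± 0.304, adjusted p 0.329 and 0.35 ± 0.206, adjusted p 0.431 for Nfkb1, and -0.54 and 0.077 for Relb. For Nfkbie they were -0.41 and 0.46, for Rela -0.14 and 0.18, and for Bcl3 -0.52 and 0.13. Traf1, Tnfaip3 and Nfkbia were above 0 in both genotypes and Rel below 0 in both. Without 1 library Nfkb2 ran from -0.72 to -0.31 and Rela from -0.26 to -0.055 in control, and Nfkb1 from 0.23 to 0.50 and Bcl3 from -0.20 to 0.42 in cKO. In control edgeR and DESeq2 called 0 (percent called 8.61% and 8.69%), with 1 at an unadjusted p under 0.05. The block called 8 in control and 7 in cKO, where it called 46.3% and 46% of all genes.

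Within naive B-like cells edgeR and DESeq2 called 0 genes for the sort in either genotype (percent called by edgeR 0% in both, and by DESeq2 0.227% in control and 0.302% in cKO), with 1 in control and 2 in cKO at an unadjusted p under 0.05. The block called 1 in control (7.37% of genes) and 4 in cKO (23.2%).

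CD4 T cells of the total sort, a lineage outside the B cells in which Cγ1Cre acts, had positive fitted changes in all 10 genes, of which edgeR called 0 (percent called 2.04%) and DESeq2 0 (3%), with 1 at an unadjusted p under 0.05. That gene, Rel, was at 184 and 143 CPM in control and 281 and 276 in cKO (0.67 ± 0.248, adjusted p 0.276), while in B classes of the same libraries it was lower in cKO or overlapped. Nfkbia was at 298 and 439.9 CPM in control and 458 and 683 in cKO (0.53 ± 0.331, adjusted p 0.597). In all, 8 of 10 lay higher in both cKO libraries (26.3% of genes). The block called 4 as higher (percent called 21.6%; blocked adjusted p, then its range): Nfkbia (0.00517, 0.00517 to 1), Rel (0.00581, 0.00581 to 1), Nfkb2 (0.0228, 0.0228 to 1) and Traf1 (0.0378, 0.0378 to 1). Without 1 library Nfkbia ran from 0.20 to 0.85 and Nfkb2 from 0.31 to 0.78. The 7 B-lineage markers summed in these T cells to 242 and 276 CPM in control and 468 and 436 in cKO, and the immediate early genes to 3302 and 4793 and 4497 and 5455. The cell cycle genes summed to 285 and 374 CPM in control and 508 and 796 in cKO, and the 7 T cell markers to 3629 and 3756 against 3328 and 3447 CPM, over 1518 and 1506 against 1739 and 2286 cells, with no overlap. The genotypes also lay in different clusters of the class, with 2109 control and 1325 cKO cells in cluster 9 (leading genes Igfbp4, Ly6c1 and Cd40lg) and 719 and 2564 in cluster 11 (Sostdc1, Ikzf2 and Tnfrsf4). The part of these measures in the result was not tested.

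The rest of the pathway was read in YFP+ pre-GCB-like cells from lists chosen with earlier results known, beside 8.78% of all genes called. Of 13 genes listed as other inhibitors and A20 partners, 3 were called as higher and 1 as lower. Tnip3, an A20-binding protein, had 2 and 1 UMIs in the control libraries (0.439 and 0.337 CPM) and 676 and 927 in cKO (20.1 and 23.6 CPM, adjusted p 0.00025), a ratio of pooled levels of 55 with an exact 95% interval of 18.8 to 267 that covers counting error only. It passed the filter on low counts through the cKO libraries alone, so its call adds nothing to these counts. Otulin, a deubiquitinase for linear ubiquitin, was at 123 and 129.6 CPM in control and 318 and 388 in cKO (1.57 ± 0.216, adjusted p 0.00311). Tnip2, another A20-binding protein, was higher (0.91, adjusted p 0.0375), and Nfkbid, a nuclear IkB protein, was at 134 and 141 CPM in control and 42.9 and 55.1 in cKO (-1.40 ± 0.214, adjusted p 0.00498). None of these 4 genes overlapped between the genotypes, which adds nothing, since they were named for their calls in these same libraries.

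Of 12 noncanonical genes and receptors 10 passed the filter on low counts, 3 were called as lower and 1 as higher. Tnfrsf13c, the BAFF receptor, was at 154 and 167 CPM in control and 78.1 and 73.5 in cKO (-0.999 ± 0.188, adjusted p 0.012). Tnfrsf1b, a tumour necrosis factor receptor (-1.55, adjusted p 0.0161), and the adaptor gene Traf5 (-0.87, adjusted p 0.0228) were lower, and Birc2, a ubiquitin ligase that holds down the kinase NIK, was higher (0.91, adjusted p 0.0174).

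Of 24 known NF-kB target genes 22 passed the filter, 5 were higher and 1 lower. Stat5a, a transcription factor of cytokine signalling, was at 25.3 and 18.6 CPM in control and 85.4 and 92.8 in cKO (2.10 ± 0.212, adjusted p 0.000815). The costimulatory ligand gene Cd80 (1.24, adjusted p 0.0114) and the survival gene Bcl2l1 (1.01, adjusted p 0.0194) were also higher. The homing receptor gene Ccr7 was at 153 and 194 CPM in control and 62.2 and 32.6 in cKO (-1.80 ± 0.292, adjusted p 0.00623). With the clusters of the class fitted alone, 0 target genes were higher and 1 lower in cluster 5 (percent called 1.82%). In cluster 13, 9 were higher and 3 lower (percent called 19.9%). The difference between the clusters was not tested.

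The median fitted change in these cells was 0.30 for the 10 genes, -0.05 for the other inhibitors, -0.21 for the noncanonical and 0.22 for the target genes, against -0.00684 for all genes. Of the dissociation and immediate early list 1 of 14 tested genes was called as lower (Nr4a1, -0.90, adjusted p 0.0424), and of 10 cell cycle genes 3 were, namely Cenpf (-1.24, adjusted p 0.00788), Ccnb2 (-0.93, adjusted p 0.014) and Cdk1 (-0.81, adjusted p 0.0436), beside 4.76% of all genes called as lower. In YFP+ and total naive B-like cells edgeR called 0 genes of any of these lists, at medians of -0.51 and -0.48 for the target genes.

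**Figure D4:**
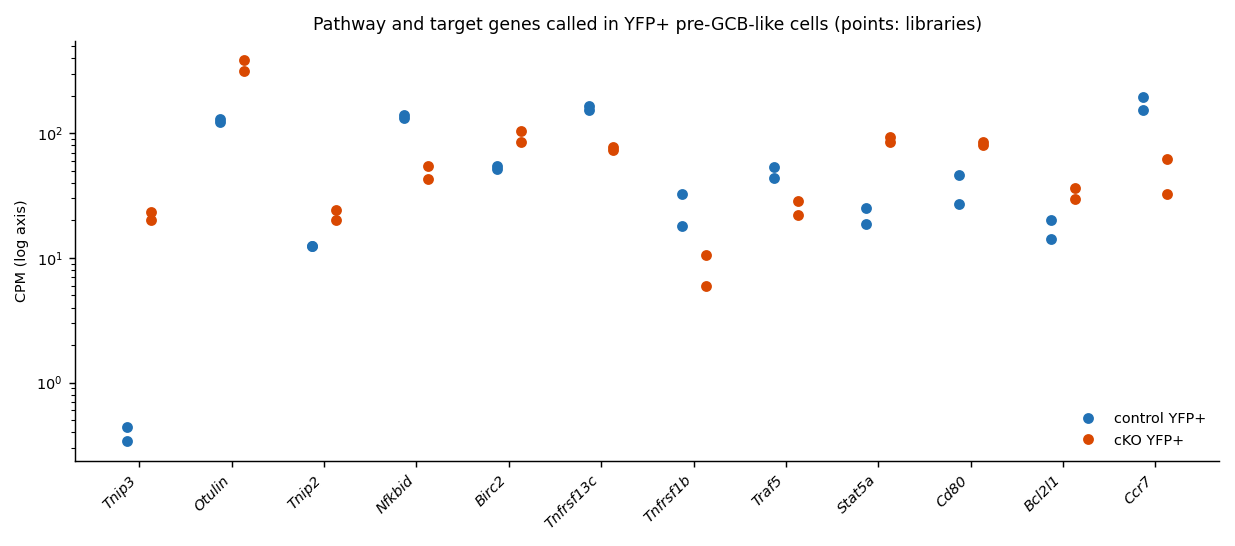
CPM (y axis, log scale) of 12 pathway and target genes called in YFP+ pre-GCB-like cells (x axis), 1 point per library. Tnip3 stood at 0.439 and 0.337 CPM in control and 20.1 and 23.6 in cKO, while Tnfrsf13c and Ccr7 were lower in both cKO libraries.

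Over the 71 class sums of the 8 libraries, the genes outside the 10 whose levels were most like Nfkb1 were Litaf, Snn, Ephx1, D1Ertd622e and Zfp397 (Pearson r 0.867 to 0.9, of 8062 genes compared). Most like Nfkbia were Slc39a7, Atp6v0c, Calr, Tmed2 and Sec11a (r 0.748 to 0.779). Among the 10 genes, Nfkb1 was most like Rel (r 0.82), Relb (0.773) and Nfkbie (0.757) and least like Nfkbia (-0.22). The points share libraries, depth and classes, and these values are descriptions.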

How the data were processed

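UMI counts per gene and cell were used as deposited; the authors made them from droplet single-cell libraries. The labels and the study's methods name a 3′ kit, the labels name the builds GRCm38 and mm10, and no source used here names the aligner. Cells with at least 201 UMIs, at least 101 genes and at most 10% mitochondrial UMIs were kept, as in the study. Groups and batch numbers came from the labels.

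Counts were scaled to 10000 per cell and log transformed, 2000 variable genes were standardised within each batch, and cells were clustered with the Leiden method at resolution 1 from 30 principal components and 20 neighbours (igraph 0.11.9, scanpy 1.11.5, Python 3.11.15). The 10 genes, the other lists, and immunoglobulin, T cell receptor, ribosomal protein and mitochondrial genes were left out. B clusters were named by the marker list of highest mean score, if 3 of its markers reached 10% of cells and none of the other lists was better represented in the 10 leading genes. These limits were set after the clusters were seen and before the groups were tested. Doublets (scrublet, 1.48% to 2.93% of cells) were removed in an alternative only. In the YFP+ libraries the threshold set by scrublet marked 0 to 0.0539% of cells, so the median threshold of the total libraries was used there.

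UMIs were summed per class and library and tested across libraries, never cells, with edgeR 4.0.16 (TMM, filterByExpr, robust quasi-likelihood F test, prior count 2) in R 4.3.3, with Benjamini-Hochberg adjustment, where each library had at least 20 cells. YFP+ transitional cells failed this. DESeq2 1.42.0 was an alternative. It was given every gene with a UMI in the fit, including any left without an adjusted p. Its percent called is therefore over more genes than that of edgeR. Replicate libraries differed beyond sampling noise and by the study's methods are separate mouse pools. The replicate number marks a shared batch in the labels, and the replicate differences of control and cKO correlated across genes in each class (r 0.199 to 0.827), so the fit with the batch as a block is given beside each result it changes.

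The 10 genes and the lists were chosen with earlier results of these data known. A further pathway list is not reported here. Of each other list, up to 3 called genes per direction with the smallest adjusted p in YFP+ pre-GCB-like, YFP+ naive and total naive B-like cells are named, and the 5 genes most correlated with Nfkb1 and with Nfkbia over class sums (mean of at least 10 CPM). Promoters are from RefSeq.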

Additional observations from a re-analysis of the deposited data

Results flagged for a closer look

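In YFP+ cells 4 of the 10 genes were higher in both cKO libraries of pre-GCB-like cells and lower in both cKO libraries of naive B-like cells, as were 2.98% of genes with a mean of at least 10 CPM in both classes. For Nfkb2 the fitted change was 1.18 in pre-GCB-like and -0.46 in naive cells, 1.64 apart. For Traf1 it was 0.46 and -0.68 (1.14 apart), for Nfkbia 0.60 and -0.34 (0.93 apart), and for Relb 0.30 and -0.36 (0.67 apart). In pre-GCB-like cells the higher control library of Relb lay just below its lower cKO library. The 10 genes were chosen with earlier results of these data known, so the share of all genes is not an independent comparison. With 1 library left out, the change in naive cells ran from -0.57 to -0.37 for Nfkb2, -1.02 to -0.22 for Traf1, -0.47 to -0.22 for Nfkbia and -0.55 to -0.14 for Relb. In pre-GCB-like cells it ran from 1.16 to 1.23, 0.34 to 0.66, 0.48 to 0.72 and 0.14 to 0.54 in the same order. In total cells Traf1 alone did so (1.06% of genes), at 0.54 in pre-GCB-like and -0.35 in naive cells (0.89 apart), and with 1 library left out at 0.19 to 0.84 and -0.55 to -0.10. Of these changes edgeR called the rise of Nfkb2 in YFP+ pre-GCB-like cells, and the differences between the classes were not tested.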

How the results depend on the processing

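With 2 libraries a group the tests had few residual degrees of freedom, and the batch block left 1 in a genotype comparison. Small classes such as control YFP+ transitional, total GCB-like and cKO YFP+ plasma cell-like cells rest on few cells. Nfkb2 in YFP+ pre-GCB-like cells was called under every alternative fitted to the named class and in cluster 13 alone, but in cluster 5 alone with the block only. With the batch number as a replicate block (genotype and batch together for the difference between sorts), the number of the 10 genes called was 3 in YFP+ B-lineage, 3 in naive, 3 in B1-like, 1 in interferon-response, 5 in pre-GCB-like, 1 in GCB-like and 2 in plasma cell-like cells. In total cells it was 2 in B-lineage, 4 in naive, 3 in pre-GCB-like, 1 in GCB-like and 4 in CD4 T cells, and it was 8 for the difference between sorts in B-lineage cells. For the sort itself the block called 8 in control and 7 in cKO B-lineage cells, and 1 and 4 in naive cells. Beside these and the clusters of the pre-GCB-like class fitted alone, the block changed no call. DESeq2 called 3 in YFP+ B-lineage, 3 in pre-GCB-like and 1 in plasma cell-like cells and 1 for the difference between sorts, the last added after the data were seen.

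A model over all 8 libraries called 1 in YFP+ B-lineage cells (percent called 8.92%), and no filter on low counts called 1 in total GCB-like cells (1.91%). In YFP+ pre-GCB-like cells Leiden resolution 0.5 gave 2 calls (9.99%) and 1.5 gave 5 (22.8%). At 1.5 the named class was a single cluster of 2265 cells (leading genes Fabp5, Socs2 and Timd2), while 4509 cells led by Mreg and Il4i1 were unnamed. Cluster 13 held 1881 cells and also had Fabp5, Socs2 and Timd2 among its leading genes. The cells shared by the named class and cluster 13 were not counted. Fitted alone, cluster 5 gave 0 calls, 4 with the replicate block and 0 by DESeq2, and cluster 13 gave 4, 5 and 4. With cKO classes taken from control neighbours 6 genes were called in YFP+ GCB-like (19.1%) and 1 in plasma cell-like cells (1.41%), and Relb (0.49), Nfkbia (1.12) and Traf1 (0.96) reversed in GCB-like cells. Tnfaip3 in YFP+ B1-like cells was -0.10 at resolution 0.5. The cause of these changes was not tested.

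Leaving out 1 library, which assumes that the lone library of its group varies like the others, gave 0 to 2 calls in YFP+ B-lineage cells (2 without control batch 1, 15.2% of genes, and 1 without control batch 2, 13%), 0 to 1 in YFP+ GCB-like cells (1 without control batch 1, 5.24%), 0 to 1 in total GCB-like cells (1 without either control, 2.95% and 6.69%), 1 in YFP+ pre-GCB-like cells, 0 to 1 for the sort in control B-lineage cells (1 without control YFP+ batch 1, 22.8%) and 1 for the sort in cKO. Changes of single genes were followed in full only in part of the comparisons. Every gene of the set was followed in YFP+ B-lineage, naive and pre-GCB-like cells and in total B-lineage and naive cells. The same holds for the sort effects and the difference between sorts in B-lineage cells. In the other sets of cells only chosen genes were followed, or none. Among the followed values, an uncalled change that turned sign was Nfkbie in YFP+ naive cells (-0.015 to 0.20, negative without cKO batch 2). In total B-lineage cells Nfkb1 (-0.11 to 0.18), Nfkbia (-0.45 to 0.027) and Tnfaip3 (-0.12 to 0.43) also turned. So did Tnfaip3 in total naive cells (-0.081 to 0.56) and Bcl3 for the sort in cKO B-lineage cells (-0.20 to 0.42). Of the values followed under the other alternatives, 686 kept their direction and side of the threshold, 68 passed it and 4 reversed. Only Nfkb2 in YFP+ pre-GCB-like cells and Traf1 for the sort in cKO B-lineage cells were called in the main fit. For the rest, keeping the side of the threshold means staying uncalled.

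Over all genes, edgeR called 1135 in YFP+ pre-GCB-like cells, and 3637 with the block, 1854 with no filter, 2788 at resolution 1.5 and 633 to 2067 with 1 library left out. In YFP+ naive cells it called 84, and 1769 with the block, 304 by DESeq2, 581 with no filter and 215 at resolution 0.5. In total naive cells it called 15, and 2558 with the block, 202 by DESeq2 and 205 with no filter.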
